A study of Mus musculus with 2 samples.

Results

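Limbal basal cells with low Krt12 are epithelial cells of the corneal rim that carried the limbal transcript Gpha2 and the basal keratin Krt14 while the corneal keratin Krt12 was low. They were chosen from the counts by 5 limits on the level in each cell, in CPM (counts of unique molecular identifiers, UMIs, scaled to 1000000 per cell): Gpha2 of at least 500, Krt14 of at least 2000, Krt12 below 3500, Krt4 below 2000 and Dcn below 2000. The limits were met by 280 of 7668 cells, 162 of 5155 in the Beclin1 +/- library (3.14%, exact binomial 95% interval 2.68 to 3.66) and 118 of 2513 in the WT library (4.70%, 3.90 to 5.60).

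The limbus is the ring between cornea and conjunctiva that holds the stem and early progenitor cells of the corneal epithelium. Cells that leave it move inward over the cornea and take up the cornea-type keratin pair, of which Krt12 encodes the acidic partner, while Krt14 and Krt5 mark basal cells of both zones. In single-cell studies of mouse cornea, Gpha2, Ifitm3 and Cd63 have been used to mark the outer limbus and Atf3 and Mt1 the inner limbus. Gpha2 encodes a subunit of a glycoprotein hormone, thyrostimulin, whose other subunit is encoded by Gphb5.

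The series holds droplet single-cell RNA libraries of the dissociated corneal and limbal rim of 1 Beclin1 +/- mouse and 1 WT littermate, both healthy females of the C57BL/6 background aged 28 days. Beclin 1 is part of the lipid kinase complex that starts autophagosomes, and the Beclin1 +/- mouse is heterozygous for its gene, Becn1. Most of the conjunctiva had been cut away, and the tissue was taken apart with collagenase and trypsin. With 1 library per genotype there is no replicate check of any genotype difference, no test was made, and each interval covers counting error only.

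The Krt12-low limbal cells had a median of 9525 UMIs in the Beclin1 +/- library (5664 to 29174) and 14469 UMIs in the WT library (8773 to 86622), below the medians of 11571 and 16967 UMIs over all Beclin1 +/- and all WT cells. Together they held 1729949 UMIs in the Beclin1 +/- and 2217987 UMIs in the WT library. Median mitochondrial shares were 2.21% and 2.38%. The libraries shared 15 barcodes, of which 1 belonged to a Beclin1 +/- Krt12-low limbal cell and none to a WT one, and a doublet caller marked none of the 280 cells.

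Becn1, the gene named in the genotype (chromosome 11, 101285952 to 101302286, minus strand, GRCm38), was counted at 47.4 CPM in Beclin1 +/- (exact Poisson 95% interval 37.7 to 58.8, 82 UMIs) and at 52.3 CPM in WT Krt12-low limbal cells (43.2 to 62.7, 116 UMIs). The log2 ratio of Beclin1 +/- over WT was -0.14 (-0.57 to 0.28). The labels do not give which part of the gene is missing, so the transcript tag may be read from both alleles and this level does not check the genotype.

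Promoters of 5 genes are shown because the results below turn on them: Gpha2 chose the cells, Hmgcs1 and Idi1 stand for sterol synthesis and Cxcl1 and Cxcl2 for a chemokine state within the cells. Each is the 250 bases before the transcript start, 5′ to 3′ in the gene's direction, from RefSeq on GRCm38.p6, all on the plus strand, at chr19:6226151-6226400 (Gpha2), chr13:119690101-119690350 (Hmgcs1), chr13:8885356-8885605 (Idi1), chr5:90890995-90891244 (Cxcl1) and chr5:90903649-90903898 (Cxcl2). Capitals mark the letters CCAAT or their reverse complement ATTGG, the sterol regulatory element TCACNCCAC, and the kappaB consensus, each searched on both strands.
Gpha2: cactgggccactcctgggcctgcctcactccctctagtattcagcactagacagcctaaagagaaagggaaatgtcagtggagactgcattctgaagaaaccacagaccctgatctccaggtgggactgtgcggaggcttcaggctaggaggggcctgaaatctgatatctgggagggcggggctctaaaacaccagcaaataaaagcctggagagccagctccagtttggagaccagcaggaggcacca
Hmgcs1: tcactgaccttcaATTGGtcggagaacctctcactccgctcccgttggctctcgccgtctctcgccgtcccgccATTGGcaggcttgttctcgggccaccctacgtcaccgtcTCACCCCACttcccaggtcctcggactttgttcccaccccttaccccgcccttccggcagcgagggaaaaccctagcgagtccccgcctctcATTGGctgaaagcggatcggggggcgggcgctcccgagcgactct
Idi1: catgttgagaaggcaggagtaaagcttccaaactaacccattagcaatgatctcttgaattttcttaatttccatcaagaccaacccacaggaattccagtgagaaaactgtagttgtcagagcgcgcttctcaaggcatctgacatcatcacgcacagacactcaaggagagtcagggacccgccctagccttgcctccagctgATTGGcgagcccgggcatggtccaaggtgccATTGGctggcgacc
Cxcl1: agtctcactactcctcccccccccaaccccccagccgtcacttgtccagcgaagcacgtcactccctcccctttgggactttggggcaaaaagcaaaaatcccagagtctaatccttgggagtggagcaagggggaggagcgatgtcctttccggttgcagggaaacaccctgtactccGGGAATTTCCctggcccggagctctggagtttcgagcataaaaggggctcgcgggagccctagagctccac
Cxcl2: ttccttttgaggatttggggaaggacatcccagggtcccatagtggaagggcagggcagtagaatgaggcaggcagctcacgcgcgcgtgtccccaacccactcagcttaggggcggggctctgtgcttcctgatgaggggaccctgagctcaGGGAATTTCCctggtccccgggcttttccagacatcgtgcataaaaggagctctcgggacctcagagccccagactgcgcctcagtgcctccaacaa
CCAAT was found in the promoters of 16 of the 16 cholesterol synthesis genes that had an entry, out of 22 listed, and in 37.5% of all 27025 genes. The Hmgcs1 promoter holds it at 3 places and Idi1 at 2, and TCACNCCAC was in Hmgcs1 alone of these 16 genes and in 1.23% of all genes. The kappaB consensus was in Ccl20, Cxcl1 and Cxcl2, 3 of the 13 alarm genes that had an entry, and in 5.67% of all genes. It was also in Egr2, Fos and Fosb, 3 of 18 immediate early genes with an entry, and in Ebp, 1 of the 16 cholesterol synthesis genes. A match is a description of the letters, not a site or a cause, and none of these motifs was in the Gpha2 window.

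The values that chose the cells are given as a description. Gpha2 ran from 509 to 15396 CPM per cell with a median of 2361 in Beclin1 +/- and from 517 to 11086 with a median of 1858 in WT cells. Krt12 had medians of 1392 CPM in Beclin1 +/- (399 to 3470) and 851 CPM in WT cells (246 to 3485), and every cell had at least some Krt12 UMIs. Dcn-positive cells (Dcn of at least 2000 CPM; 1507 Beclin1 +/- and 609 WT cells), which as stromal cells should lack this keratin, had Krt12 medians of 1010 and 655 CPM. The Krt12 of the Krt12-low limbal cells was therefore not far above the level read in cells of another type, and the part of free RNA in it was not tested.

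The limits on Krt12 and Gpha2 fell within a continuous range. The Krt12 values nearest the limit were 3470 CPM inside and 3505 CPM outside in the Beclin1 +/- library, and 3485 inside and 3647 outside in the WT library, while those of Gpha2 were 509 inside and 495 outside in Beclin1 +/- and 517 inside and 491 outside in WT. For Krt14 they were 2083 inside and 1328 outside in Beclin1 +/- and 2153 inside and 137 outside in WT, and for Krt4 1621 inside and 2028 outside in Beclin1 +/- and 1965 inside and 2033 outside in WT. The highest Dcn inside was 668 CPM in Beclin1 +/- and 357 CPM in WT, and the nearest Beclin1 +/- cell outside that limit had 27607 CPM. The cells that failed only the Krt12 limit, called limbal cells with Krt12 below, numbered 201 in Beclin1 +/- and 111 in WT. Only Gpha2 was missed by 27 Beclin1 +/- and 19 WT cells, only Krt14 by 17 and 1, only Krt4 by 7 and 4, and only Dcn by 2 and 0. Of the 705 Beclin1 +/- and 366 WT cells with Gpha2 of at least 500, 382 and 237 also passed Krt14.

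Limbal and basal markers that the rule did not use were then read. Corneal basal cells, with Krt14 of at least 2000 and Krt12 of at least 3500 but Gpha2 below 500 CPM (1538 Beclin1 +/- and 842 WT cells), served as the comparison. Krt15, a keratin of limbal basal cells (chromosome 11, 100131758 to 100135928), had per-cell medians of 3931 CPM in Beclin1 +/- and 4479 CPM in WT Krt12-low limbal cells, against 164 and 77.4 CPM in Beclin1 +/- and WT corneal basal cells. It spread widely, from 128 to 21857 CPM in Beclin1 +/- and from 288 to 19529 CPM in WT Krt12-low limbal cells. Ifitm3, a membrane protein of antiviral defence, had medians of 1994 and 1499 CPM in Beclin1 +/- and WT Krt12-low limbal cells, against 319 and 258 CPM in the corneal basal cells of each library.

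With the UMIs of all cells of a population summed, Cd63, a tetraspanin of late endosomes, had 412 CPM in Beclin1 +/- and 335 CPM in WT Krt12-low limbal cells, against 73.5 and 65.4 CPM in Beclin1 +/- and WT corneal basal cells. Dcn-positive cells had 3140 and 3365 CPM of it, so Cd63 is no marker of these cells across the whole rim. Krt17, a keratin of activated and appendage epithelium, had 2795 and 2347 CPM in Beclin1 +/- and WT Krt12-low limbal cells, against 249 and 88.2 CPM in corneal basal cells. Its corneal per-cell median was 0 in both libraries, and the Krt12-low medians were 1828 CPM in Beclin1 +/- and 1728 CPM in WT.

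Other basal and progenitor genes were not raised together with these. Trp63, the transcription factor p63 of epithelial progenitors, had 79.2 and 72.1 CPM in Beclin1 +/- and WT Krt12-low limbal cells, against 65.7 and 71.1 CPM in corneal basal cells, log2 ratios of 0.28 and 0.03. With each cell thinned to 5000 UMIs, 30.2% of Beclin1 +/- and 28.0% of WT Krt12-low limbal cells had a Trp63 UMI (49.4% and 56.8% before thinning), against 27.0% and 28.4% of corneal basal and 2.32% and 1.15% of Dcn-positive cells. Abcg2, an efflux transporter used as a limbal stem cell marker, had 1.16 and 1.80 CPM in Beclin1 +/- and WT Krt12-low limbal cells, against 18.3 and 14.9 CPM in corneal basal cells, the first 2 values from 2 and 4 UMIs, and no UMI of the transporter gene Abcb5 was read in any of the 5 populations. The basal keratin gene Krt5 was lower in Krt12-low limbal cells by log2 ratios of -0.88 in Beclin1 +/- and -0.64 in WT.

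Of the 17 limbal markers listed, 10 passed a minimum of 20 CPM as the mean of both populations in each library. Of these, 5 were at least 2-fold higher in Krt12-low limbal than in corneal basal cells in both libraries (Krt15, Ifitm3, Cd63, Krt17 and the P-cadherin gene Cdh3) and none was 2-fold lower, with list medians of 1.11 in Beclin1 +/- and 1.12 in WT. These medians depended on the minimum, at 0.28 and 0.19 with 5 CPM and 2.15 and 2.11 with 100 CPM, and were 0.65 and 0.41 with each cell weighted equally. Over all 4089 genes that passed, 4.74% were higher by this measure and 3.23% were lower (7.97% in either direction), and the median log2 ratio was 0.04 in each library. Against conjunctival-type cells (Krt4 of at least 2000 CPM; 135 Beclin1 +/- and 69 WT cells) Krt15 was lower, since those had 23200 CPM in Beclin1 +/- and 19660 CPM in WT, against summed levels of 4936 and 6248 CPM in Krt12-low limbal cells. Ifitm3, at 1978 and 1480 CPM in Beclin1 +/- and WT Krt12-low limbal cells, had 210.3 and 226 CPM in conjunctival-type cells, and Gpha2 had 194 and 300.4 CPM there. Of the 5 markers called against corneal basal cells, Ifitm3, Cd63 (66.0 CPM in Beclin1 +/- and 72.7 CPM in WT conjunctival-type cells) and Krt17 (2029 and 1161 CPM) were also lower in conjunctival-type cells, and Krt15 and Cdh3 (44.9 and 37.7 CPM) were not. In the hemidesmosome and basement membrane list 1 of 14 genes was called, Lamb1, a laminin chain, which was lower (-1.41 in Beclin1 +/-, -1.96 in WT).

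**Figure D1:**
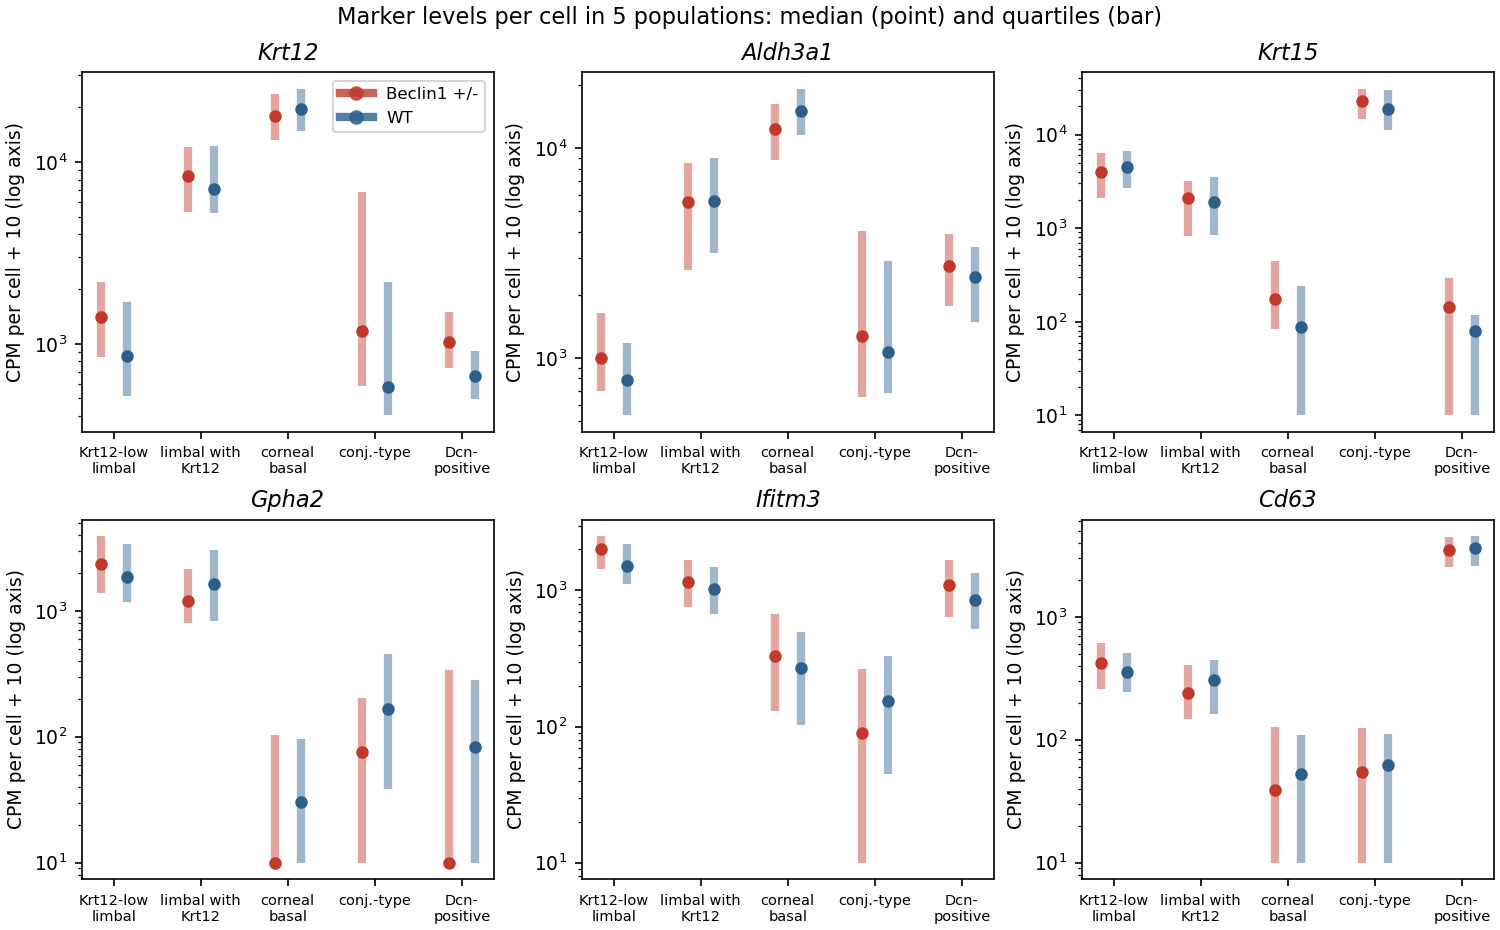
Per-cell levels of 6 markers in 5 populations of the Beclin1 +/- (red) and WT (blue) library, as CPM plus 10 on a log axis, with points for medians and bars for quartiles. In Krt12-low limbal cells Krt15 has medians of 3931 and 4479 CPM while Krt12, which chose them, has 1392 and 851 CPM, close to the 1010 and 655 CPM of Dcn-positive cells.

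Markers of non-epithelial cell types were low in the Krt12-low limbal cells. The 4 mast cell markers had no UMI, the vascular list summed to 0.578 CPM in Beclin1 +/- and 0 CPM in WT, with 3 of 4 and 4 of 4 genes at 0, and the Schwann cell list summed to 0.578 and 0.451 CPM. Melanocyte markers summed to 3.47 and 2.71 CPM in Beclin1 +/- and WT, with 3 and 4 of 6 genes at 0. Immune markers summed to 15.6 and 6.31 CPM. Stromal markers summed to 249 CPM in Beclin1 +/- and 188 CPM in WT, near the 215 and 155 CPM of corneal basal cells and far under the 40233 and 48107 CPM of Dcn-positive cells. Dcn is a stromal marker on which all of these populations were cut, so this contrast was set in part by the limits. Keratins and mucins of the conjunctiva summed to 2003 CPM in Beclin1 +/- and 3356 CPM in WT, against 16227 and 17317 CPM in conjunctival-type cells. Krt4 is a conjunctival keratin on which both populations were cut, so this gap was set in part by the limits. By gene and without Krt4, 3 of the 7 measured were called higher than in corneal basal cells and none lower. These were Krt7, Krt8 and Krt18, and the list medians were 0.77 in Beclin1 +/- and 2.31 in WT (2 called with TMM scaling). Against limbal cells with Krt12, the 4 of 7 that were at least 1.5-fold higher in both libraries were Krt13, Krt19, Krt7 and Krt8, beside 4.01% of all genes. None was lower, and the medians were 0.94 and 1.76. The conjunctival list thus moved with the differences given below, and its part in them was not tested.

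The next comparison asked which transcripts set Krt12-low limbal cells apart from corneal basal cells. The populations differ in measured genes by construction, so the values describe them and no gene was tested. Among the 4089 genes, 194 were at least 2-fold higher and 132 at least 2-fold lower in both libraries. With TMM scaling, which lowers every ratio by 0.13 in each library, the counts were 158 and 175.

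Secreted proteins led the higher genes. Wfdc18, a small protein with a whey acidic protein domain of the type found in protease inhibitors (chromosome 11, 83709015 to 83711348), had 1001 CPM in Beclin1 +/- and 552 CPM in WT Krt12-low limbal cells, against 8.31 and 0.593 CPM in Beclin1 +/- and WT corneal basal cells. Lcn2, the iron-scavenging lipocalin, had 216 and 106 CPM against 4.97 and 1.36 CPM in the same populations, log2 ratios of 5.44 in Beclin1 +/- and 6.25 in WT. Igfbp3, a binding protein of insulin-like growth factors, had 74.0 CPM in Beclin1 +/- and 101.0 CPM in WT Krt12-low limbal cells (4.30 and 6.78). Ccdc3, a secreted coiled-coil protein, had 93.1 and 100.1 CPM (6.29 and 6.97), and Calcb, the beta form of the calcitonin gene-related peptide, had 134 and 244 CPM (3.84 and 6.67).

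Intracellular genes at the same end covered several functions. Sox4, a transcription factor of progenitor cells in many tissues, had 71.1 CPM in Beclin1 +/- and 64.5 CPM in WT Krt12-low limbal cells, against 3.12 and 1.07 CPM in corneal basal cells (log2 ratios of 4.51 and 5.88). Tppp3, a tubulin-binding protein, had 444 and 501 CPM in Beclin1 +/- and WT Krt12-low limbal cells, against 16.4 and 15.8 CPM in corneal basal cells. Krt7, a keratin of simple and ductal epithelia, had 183 and 222 CPM against 11.7 and 5.63 CPM, and the small heat shock protein gene Hspb8 had 71.1 and 74.4 CPM against 4.42 and 3.38 CPM. The lipoxygenase Alox12e (5.59 in Beclin1 +/-, 7.09 in WT), Tnfaip2, a gene induced by tumour necrosis factor (4.18 and 5.48), and the cytochrome P450 gene Cyp2f2 (4.11 and 6.74) completed the 12 highest. Several of the 12 were also read outside the limbal cells. Dcn-positive cells had 420 CPM of Cyp2f2 in Beclin1 +/- and 425 CPM in WT, and 58.2 and 58.4 CPM of Tnfaip2. Conjunctival-type cells of Beclin1 +/- and WT had more than the Krt12-low limbal cells of Krt7 (443 and 511 CPM), Alox12e (149 and 296 CPM) and Cyp2f2 (94.2 and 395 CPM). They had less of Tppp3 (291 and 362 CPM), Wfdc18 (179 and 405 CPM), Igfbp3 (35.6 and 85.7 CPM) and Hspb8 (36.0 and 50.2 CPM). Sox4, Tnfaip2, Lcn2, Ccdc3 and Calcb were at most 49.3 CPM there, below the Krt12-low limbal cells of the same library.

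Genes of the corneal programme led the lower end. Aldh3a1, the crystallin-like aldehyde dehydrogenase of the cornea, had 1316 CPM in Beclin1 +/- and 1125 CPM in WT Krt12-low limbal cells, against 12480 and 15170 CPM in corneal basal cells (-3.25 and -3.75). The water channel gene Aqp5 had 158 and 105 CPM against 2317 and 2090 CPM, and the secreted Ly6 family genes Slurp1 (-4.42 and -5.19) and Lypd2 (-3.76 and -4.45) went further. All of these were read at higher levels in Dcn-positive cells than in Krt12-low limbal cells, for example Aldh3a1 at 3534 CPM in Beclin1 +/- and 2948 CPM in WT and Slurp1 at 590 and 341 CPM. Levels of that size are read in cells of another type in these libraries, so the ratios of these genes may be at the lower edge of what could be measured. However, the doublet caller marked 137 Dcn-positive cells of 213 marked in Beclin1 +/- and 31 of 51 in WT. These cells were kept in the sums, and their part in these levels was not tested.

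The other genes of the lower 12 had varied functions. Mmp10, stromelysin 2, had 27.8 CPM in Beclin1 +/- and 12.2 CPM in WT Krt12-low limbal cells, against 382 and 438 CPM in corneal basal cells. Mmp13, a collagenase, had 7.52 and 7.21 CPM against 215 and 170 CPM (-4.79 and -4.52), and 1 cell held 46.2% of its UMIs in Beclin1 +/- and 50.0% in WT. The glycogen primer glycogenin, Gyg, had 36.4 and 33.4 CPM against 370 and 361 CPM, and Pygl, a glycogen phosphorylase, had log2 ratios of -2.98 and -4.07. The calcium sensor gene Guca1a (-3.69 and -3.95), the synaptotagmin gene Syt8 (-3.76 and -3.02) and the growth factor epigen, Epgn (-3.02 and -3.25), followed. The natriuretic peptide gene Nppb had 4.62 CPM in Beclin1 +/- and 0.902 CPM in WT Krt12-low limbal cells, the second from 2 UMIs, against 61.8 and 86.6 CPM in corneal basal cells. Its log2 ratio was -3.65 in Beclin1 +/- and -6.26 (-9.63 to -4.73) in WT.

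**Figure D2:**
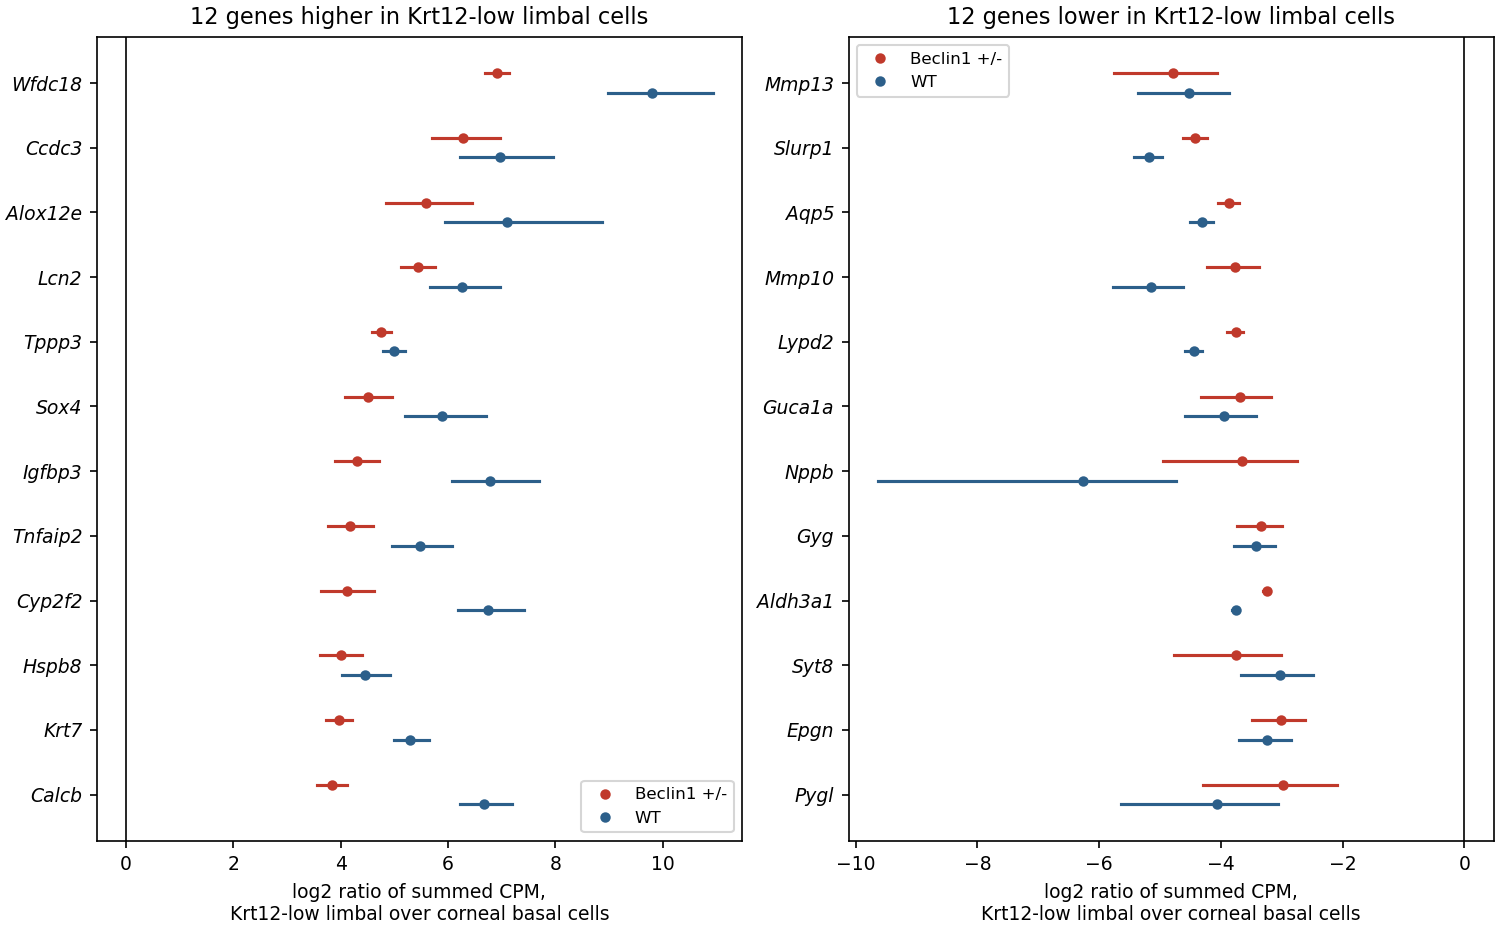
Log2 ratios of summed CPM, Krt12-low limbal over corneal basal cells, for the 12 highest and 12 lowest genes in the Beclin1 +/- (red, upper of each pair) and WT (blue) library, with lines for 95% counting intervals. Wfdc18 leads the higher genes at 6.91 and 9.79, and Mmp13 has the lowest Beclin1 +/- ratio at -4.79.

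Of the 12 corneal markers measured, 5 were called lower and none higher, with list medians of -0.64 in Beclin1 +/- and -0.50 in WT. Besides Aldh3a1, Slurp1 and Aqp5 they were Tkt, the transketolase that is abundant in cornea, with 738 and 664 CPM in Beclin1 +/- and WT Krt12-low limbal cells against 3889 and 4726 CPM in corneal basal cells, and the glutathione transferase Gsta4 (-1.95 and -1.55). Transcription factors of the list differed little, with Pax6, the regulator of eye development, at -0.32 in both libraries and Klf5 at 0.03 in Beclin1 +/- and 0.08 in WT. Pax6 and Klf5 were thus read at corneal levels in cells in which the abundant corneal products were low.

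Cholesterol synthesis genes were lower. All 15 measured genes had negative ratios in both libraries, and 7 of them were past 2-fold in both, beside 3.23% of all genes (11 called with TMM scaling). The medians were -1.17 in Beclin1 +/- and -1.86 in WT. Hmgcs1, the synthase at the start of the pathway whose promoter is shown above, had 42.2 CPM in Beclin1 +/- and 42.8 CPM in WT Krt12-low limbal cells, against 96.3 and 102.6 CPM in corneal basal cells. Fdps, the farnesyl diphosphate synthase, had 82.7 and 35.2 CPM against 239 and 215 CPM. Insig1, which holds sterol-sensing factors in the endoplasmic reticulum, had log2 ratios of -1.63 and -2.17, and the epoxidase gene Sqle had -1.19 and -1.93. Against limbal cells with Krt12 the list medians were nearer 0, at -0.35 and -0.58. There 14 of 14 had negative ratios in Beclin1 +/- and 13 of 14 in WT, and 2 were called lower, beside 2.59% of all genes.

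Alarm and innate immunity genes stood at the other side, with 7 of 13 called higher and none lower and medians of 1.33 in Beclin1 +/- and 1.23 in WT. Besides Lcn2 these were the calgranulin genes S100a8 and S100a9, the protease inhibitor Slpi, the chemokine Ccl20, the interleukin 1 receptor antagonist Il1rn and the granulocyte factor Csf3. Csf3 had 394 CPM in Beclin1 +/- and 291 CPM in WT Krt12-low limbal cells, against 75.3 and 30.1 CPM in corneal basal cells, and Slpi had 253 and 269 CPM against 101 and 52.2 CPM. S100a8 had 111 CPM in Beclin1 +/- and 30.7 CPM in WT Krt12-low limbal cells, against 19.0 and 13.1 CPM, and 1 cell held 61.8% of the WT UMIs. Ccl20 in WT rested on 1 cell for 47.9% of its UMIs. Against limbal cells with Krt12 the alarm medians were smaller, at 0.08 in Beclin1 +/- and 0.28 in WT. There 3 of 13 genes were called higher, beside 4.01% of all genes, and none lower. By sign, 6 were higher and 1 was lower in both libraries, and S100a8 had 0.17 in Beclin1 +/- and -1.61 in WT.

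Of the BMP pathway and its Id targets, 5 of 7 measured genes were called higher and none lower, with medians of 1.27 in Beclin1 +/- and 1.21 in WT (4 called with TMM scaling). Id1, an inhibitor of basic helix-loop-helix factors that BMP signals induce, had 602 CPM in Beclin1 +/- and 692 CPM in WT Krt12-low limbal cells, against 120 and 126 CPM in corneal basal cells. The signal transducer Smad1 had 50.3 and 62.7 CPM against 20.9 and 17.4 CPM. Follistatin, Fst, which binds activins and some BMPs and blocks them, had 163 and 213 CPM against 31.0 and 11.1 CPM. Id2 (1.17 in Beclin1 +/-, 1.08 in WT) and Id3 (1.35 and 1.21) made up the 5. Against limbal cells with Krt12 the medians of this list were smaller, at 0.22 in Beclin1 +/- and 0.38 in WT. There 1 of 10 genes was called higher, beside 4.01% of all genes, and none lower.

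Single genes of other pathways were also past 2-fold, beside 7.97% of all measured genes in either direction. In the Wnt list 1 of 7 genes was called, the ligand Wnt5b (2.43 in Beclin1 +/-, 2.27 in WT), and in the Notch list none of 5. Among proteases and their inhibitors, the metalloprotease inhibitors Timp2 (1.56 and 2.04) and Timp3 (1.21 and 1.68) and the kallikrein Klk10 (2.06 and 2.76) were higher beside the lower Mmp10 and Mmp13. In the glutathione and oxidative stress list 4 of 20 were higher, Gstm1, Gstm2, Txnrd1 and the glutathione synthesis subunit Gclm (1.35 and 1.49), and only Gsta4 was lower. The growth arrest genes Gadd45b (1.88 and 1.98) and Gadd45g (1.90 and 2.27) were higher and Mdm2, the inhibitor of p53, was lower (-1.04 and -1.07). In the cornified envelope list, Tgm1, Dmkn and Sbsn were higher and Lce3a and Lypd3 lower, so that list had no common direction.

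None of the 15 measured autophagy genes, the process in which Becn1 acts, passed 2-fold in both libraries (1 was called lower with TMM scaling), with 7 higher and 7 lower in both libraries and medians of 0.14 in Beclin1 +/- and -0.02 in WT. The largest were Map1lc3a, which encodes a ubiquitin-like protein of the autophagosome membrane, at 246 and 221 CPM in Beclin1 +/- and WT Krt12-low limbal cells against 114 and 113 CPM in corneal basal cells (1.10 and 0.97), and the mitophagy receptor Bnip3l at -0.97 and -1.14. Of 17 lysosomal genes, Cd63 and the cathepsin Ctsz (1.79 and 1.69) were called higher and 1 was called lower. Over all genes 7.97% were called in either direction, so few calls would be found in lists of this size at that share. The 11 mitochondrially encoded genes all had positive ratios with medians of 0.32 in Beclin1 +/- and 0.42 in WT and none called, and 44 of 49 ribosomal genes were above 0 in both libraries, 31 of 49 with TMM scaling, with medians of 0.20 and 0.15.

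**Figure D3:**
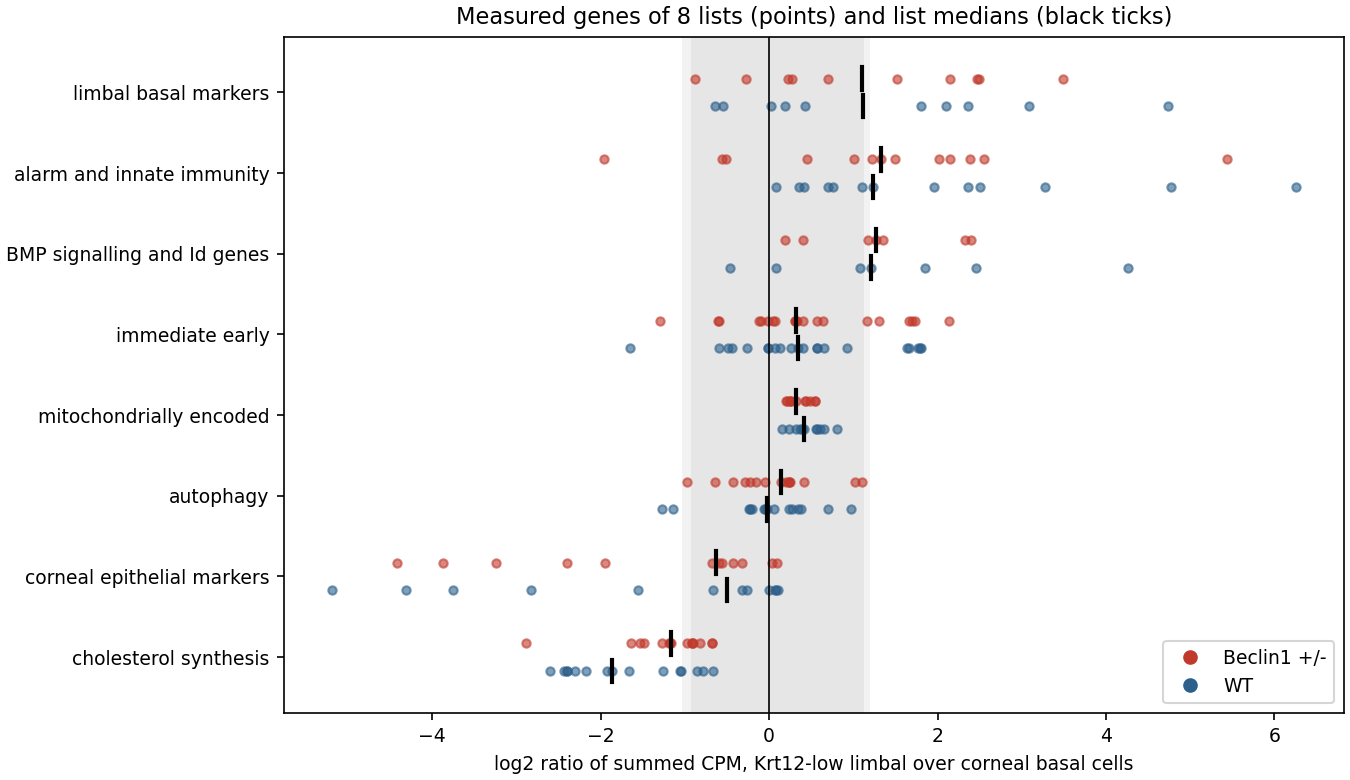
Log2 ratios of summed CPM, Krt12-low limbal over corneal basal cells, of the measured genes of 8 lists (points; Beclin1 +/- red above WT blue) with list medians as black ticks and the central 90% of all genes shaded. All 15 cholesterol synthesis genes lie below 0 and their medians are -1.17 and -1.86, while the alarm list has medians of 1.33 and 1.23.

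The Krt12-low cells were next set against limbal cells with Krt12, which share Gpha2 and Krt14. Over 4014 measured genes, 161 (4.01%) were at least 1.5-fold higher and 104 (2.59%) at least 1.5-fold lower in both libraries (6.6% in either direction), with medians of 0.05 in Beclin1 +/- and 0.08 in WT. With TMM scaling the counts were 128 and 132. Wfdc18 again led, at 1001 and 552 CPM in Beclin1 +/- and WT Krt12-low cells against 96.2 and 14.9 CPM in limbal cells with Krt12 (3.38 and 5.19). Calcb (2.52 and 3.31), Igfbp3 (2.04 and 2.79), Cyp2f2 (2.26 and 3.06) and Ccl20 (2.23 and 2.49) followed it. Agr2, a secretory pathway isomerase abundant in mucous cells, had 50.9 and 78.0 CPM against 12.5 and 12.2 CPM, and conjunctival-type cells had 137 and 121 CPM of it. Csrp2, a LIM domain protein, had 63.0 CPM in Beclin1 +/- and 46.4 CPM in WT Krt12-low cells, against 9.30 and 10.1 CPM in limbal cells with Krt12.

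Sprr2f, a cornified envelope precursor, met the same rule at 60.7 CPM in Beclin1 +/- and 56.4 CPM in WT Krt12-low cells, against 5.01 and 10.1 CPM in limbal cells with Krt12. However, 1 cell held 50.5% of its Beclin1 +/- and 38.4% of its WT UMIs, and conjunctival-type cells had 544 and 531 CPM. At the lower end stood the corneal genes named before, Mmp13 (-4.12 and -2.90), Slurp1 (-2.80 and -3.26), Mmp10 (-2.71 and -4.17), Guca1a (-2.68 and -2.69), Lypd2 (-2.63 and -2.87), Aldh3a1 (-2.31 and -2.58), Gyg (-2.39 and -2.30) and Epgn (-2.27 and -2.71).

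Marker genes were then read over 4 ranges of Krt12 among all cells that passed the other limits, below 1000, from 1000, from 3500 and from 7000 CPM. The ranges were set after the data were seen and held 53, 109, 74 and 127 Beclin1 +/- and 71, 47, 55 and 56 WT cells. Krt17 decreased over the ranges, with 3411, 2398, 1533 and 714 CPM in Beclin1 +/- and 2743, 1671, 771 and 458 CPM in WT. Krt15 had 6820, 3718, 4286 and 2558 CPM in Beclin1 +/- and 6848, 5224, 3462 and 2087 CPM in WT, an order that was broken once in Beclin1 +/-. Gpha2 did not follow Krt12 in this way: it was highest in the second range of both libraries, at 3282 CPM in Beclin1 +/- and 3006 CPM in WT, against 2024 and 1990 CPM in the first.

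Several leading genes were highest in the first range, by an amount that differed between genes and libraries. Igfbp3 had 91.3, 62.8, 29.7 and 12.8 CPM over the ranges in Beclin1 +/- and 147, 23.2, 12.3 and 16.3 CPM in WT. Calcb had 287 CPM in the first range and 35.2 CPM in the second in Beclin1 +/-, and 353 and 58.6 CPM in WT. Wfdc18 differed between the libraries, since the Beclin1 +/- cells had 1026 CPM in the first and 985 CPM in the second range and the WT cells had 848 and 47.6 CPM. Sox4 had 83.9, 62.8, 32.1 and 11.8 CPM in Beclin1 +/- and 82.2, 34.2, 16.7 and 11.2 CPM in WT. Aldh3a1 increased from range to range, with 873, 1602, 3494 and 7819 CPM in Beclin1 +/- and 677, 1891, 4515 and 8772 CPM in WT. Each range pools cells of 1 animal per genotype.

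Dividing cells were found among the Krt12-low cells. Against limbal cells with Krt12, 8 of 8 measured G2 and M phase genes were higher in both libraries, 5 of them past 1.5-fold, with medians of 1.32 in Beclin1 +/- and 1.09 in WT. Top2a, the topoisomerase of dividing cells, had 54.9 and 46.0 CPM in Beclin1 +/- and WT Krt12-low cells against 13.2 and 19.2 CPM, and Ube2c, a ubiquitin enzyme of mitotic exit, had 102 and 90.6 CPM against 34.3 and 39.9 CPM. Against corneal basal cells none of 12 was called, with medians of -0.12 and -0.27.

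The share of cells with a Top2a UMI at 5000 UMIs per cell was 10.5% of Beclin1 +/- and 10.2% of WT Krt12-low cells (17.3% and 22.0% before thinning). It was 3.98% and 2.70% of limbal cells with Krt12, 11.96% and 12.9% of corneal basal cells and 1.86% and 1.15% of Dcn-positive cells. For Mki67, the proliferation antigen, the thinned shares were 8.64% and 5.93% of Beclin1 +/- and WT Krt12-low cells, 2.99% and 3.60% of limbal cells with Krt12, 7.80% and 9.62% of corneal basal cells and 1.46% and 0.493% of Dcn-positive cells. Limbal cells with Krt12 had the lowest shares of the 3 basal populations in both libraries, although the exact binomial intervals of the Top2a shares overlapped, at 6.23% to 16.3% in Krt12-low cells and 1.73% to 7.69% in limbal cells with Krt12 of Beclin1 +/-, and 5.37% to 17.1% and 0.561% to 7.70% in WT.

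The Krt12-low cells also differed among themselves. Over 3805 genes, the variance over the mean of thinned counts had a median of 1.07 in each library, where counting error alone gives about 1, and 48 genes reached at least 5 in both libraries. Fos, the immediate early transcription factor, had 57.4 in Beclin1 +/- and 40.6 in WT, and Wfdc18 had 66.7 and 24.8. The nuclear RNA Malat1 (33.3 and 29.0), Gsto1 (16.9 and 18.9), Dusp1 (16.5 and 14.8), Atf3 (25.4 and 14.02), Krt17 (13.2 and 14.7), Krt15 (12.5 and 14.3), Slpi (12.4 and 15.8), Mt1 (12.4 and 18.5), Actb and H3f3b completed the 12 most variable genes.

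Fos, Wfdc18, Cxcl2 and Krt19 were used to describe the spread, with limits chosen after their values were seen, so the groups carry no test. Fos of at least 2000 CPM was reached by 22 Beclin1 +/- cells (13.6%, exact binomial 95% interval 8.71 to 19.8) and 16 WT cells (13.6%, 7.95 to 21.1). In these cells Egr1, another immediate early factor, had 1224 CPM in Beclin1 +/- and 1581 CPM in WT, against 61.5 and 82.9 CPM in the other Krt12-low cells. The cytokine signal suppressor Socs3 had 582 and 667 CPM against 28.4 and 37.5 CPM, and Atf3 had 4839 and 3245 CPM against 237 and 289 CPM.

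The medians of the immediate early list were lower when this small group was left out. Over all Krt12-low cells the list's medians against corneal basal cells were 0.32 in Beclin1 +/- and 0.34 in WT, with 4 of 21 genes called higher (Atf3, Klf2, Nr4a1 and Myc) and Cyr61 lower. Without the Fos-high cells, an alternative chosen after seeing the data, the medians were -0.76 and -0.77, with the corneal basal cells left whole. Cells chosen by high Fos, itself an immediate early gene, were left out on the limbal side only, which was bound to lower these medians. The values therefore do not show how much of the list's difference rests on that group. Atf3, a marker of the inner limbus, had summed levels of 900 CPM in Beclin1 +/- and 754 CPM in WT Krt12-low cells. Corneal basal cells had 285 and 243 CPM of it. However, its per-cell medians were 89.98 and 77.1 CPM in Krt12-low cells against 169 and 141 CPM in corneal basal cells. Mt1, the other inner limbus marker named above, was lower in Krt12-low cells, with log2 ratios of -0.28 in Beclin1 +/- and -0.59 in WT. Of the 4 inner limbal markers listed, 2 were higher and 2 lower in both libraries. Immediate early genes are known to respond to enzymatic dissociation, whose part here was not tested.

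Wfdc18 of at least 1000 CPM was reached by 26 Beclin1 +/- cells (16.0%) and 15 WT cells (12.7%). The gene most enriched beside it was Gphb5, which encodes the other subunit of thyrostimulin (chromosome 12, 75411722 to 75416781), with 175 CPM in Beclin1 +/- and 60.4 CPM in WT Wfdc18-high cells, against 4.16 and 0.999 CPM in the other Krt12-low cells. Its UMIs came from 13 Beclin1 +/- and 5 WT Wfdc18-high cells. Alox12e had 143 and 167 CPM against 19.4 and 31.0 CPM. Gpha2 itself was lower in the Wfdc18-high cells, at 1572 CPM in Beclin1 +/- and 1780 CPM in WT, against 3029 and 2429 CPM, and so was the fatty acid binding protein Fabp5, at 213 and 228 CPM against 1308 and 992 CPM.

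Gphb5 was rare. A UMI was found in 17 Beclin1 +/- (10.5%) and 7 WT (5.93%) Krt12-low cells, and at 5000 UMIs per cell in 7.41% and 4.24%. Limbal cells with Krt12 had it in 1.99% of Beclin1 +/- and 0.901% of WT cells (1.49% and 0% after thinning). It was found without thinning in 1 of 1538 Beclin1 +/- and 0 of 842 WT corneal basal cells, the second allowing up to 0.356% of cells with a UMI, and in 1 of 1507 and 0 of 609 Dcn-positive cells. Conjunctival-type cells had it in 2 of 135 Beclin1 +/- cells (1.48%, 0.741% after thinning) and 4 of 69 WT cells (5.80%, 2.90% after thinning), so in WT its unthinned share there was near that of the Krt12-low cells. Pooled levels were 32.4 CPM in Beclin1 +/- and 6.76 CPM in WT Krt12-low cells. Tshr, the receptor of thyrotropin and thyrostimulin, had no UMI in the Krt12-low cells, which allows up to 1.85% of Beclin1 +/- and 2.54% of WT cells with a UMI. At this depth cells that express a gene can lack its UMIs, so these limits are not limits on expressing cells. The Dcn-positive cells, the background for such shares, had median depths of 8396 UMIs in Beclin1 +/- and 11934 UMIs in WT.

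Cxcl2 of at least 1000 CPM, a chemokine that attracts neutrophils, was reached by 28 Beclin1 +/- cells (17.3%) and 15 WT cells (12.7%). These cells had 1376 CPM of Cxcl1 in Beclin1 +/- and 1555 CPM in WT, against 192 and 137 CPM in the other Krt12-low cells, and 804 and 786 CPM of Slpi against 141 and 210 CPM. Id1 was lower in them, at 168 and 244 CPM against 691 and 743 CPM, and Il1rn had 6.85 and 4.44 CPM against 64.7 and 146 CPM. The promoters of Cxcl1 and Cxcl2 shown above both hold the kappaB consensus, which was in 5.67% of all genes and also in Fos and Fosb. Its part in this state was not tested.

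Krt19 of at least 300 CPM, a keratin of conjunctival and simple epithelium, was reached by 13 Beclin1 +/- cells (8.02%, 4.34 to 13.3) and 23 WT cells (19.5%, 12.8 to 27.8). Pglyrp1, a peptidoglycan-binding defence protein, had 1121 and 999.9 CPM in these Beclin1 +/- and WT cells, against 295 and 224 CPM in the others, and Pdzk1ip1 had 412 and 451 CPM against 81.3 and 96.1 CPM. The membrane mucin Muc4 and the serine protease inhibitor Serpinb3a were also among their leading genes.

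Fos-high and Cxcl2-high cells shared 1 cell in Beclin1 +/- and 0 in WT, whereas 8 of the 13 Krt19-high Beclin1 +/- cells and 5 of the 23 WT ones were also Wfdc18-high. No limit was reached by 90 Beclin1 +/- (55.6%) and 60 WT cells (50.9%), so most Krt12-low cells belonged to none of these groups.

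**Figure D4:**
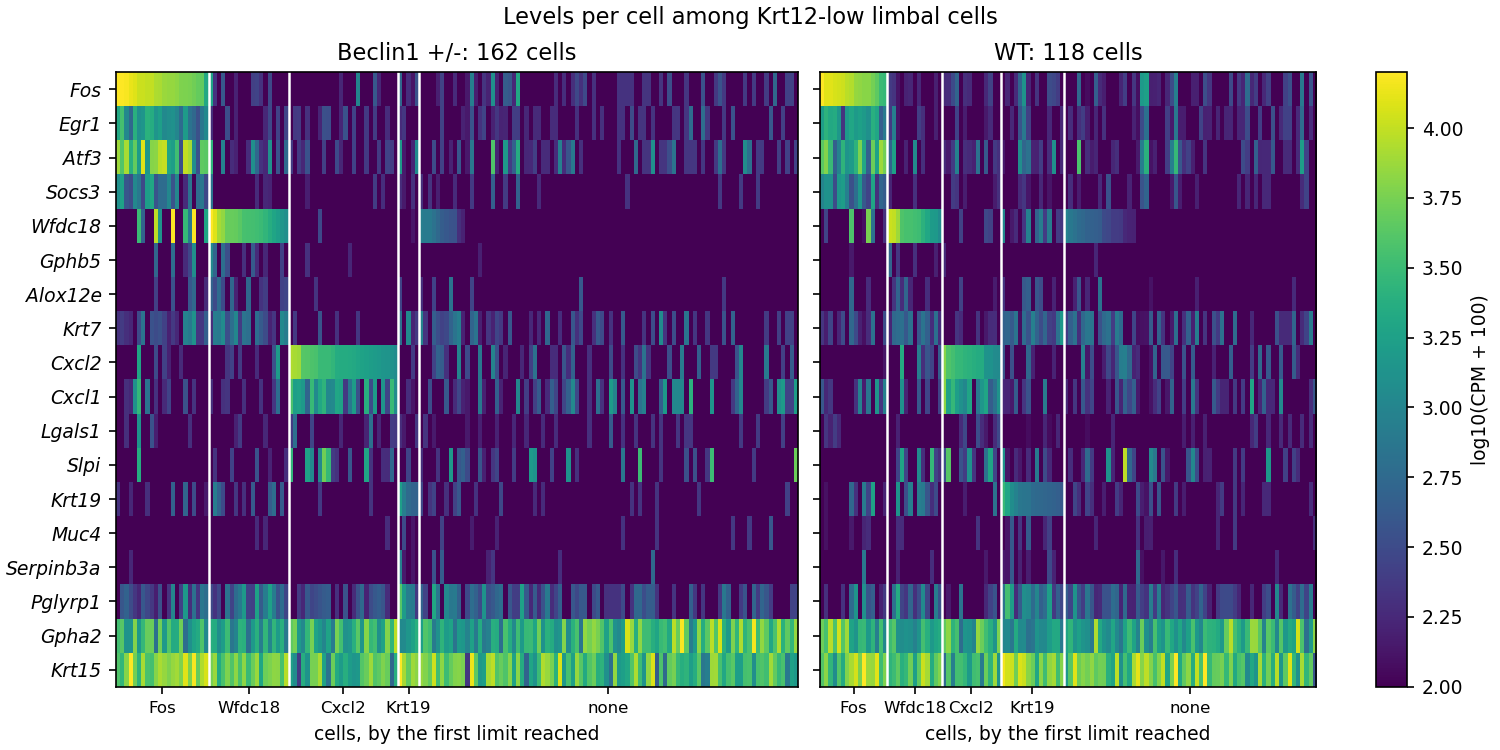
Levels per cell of 18 genes, as log10 of CPM plus 100, in the 162 Beclin1 +/- (left) and 118 WT (right) Krt12-low limbal cells, sorted by the first limit reached in the order Fos, Wfdc18, Cxcl2, Krt19 and none. The Fos, Wfdc18 and Cxcl2 blocks have 22, 19 and 26 Beclin1 +/- and 16, 13 and 14 WT cells, and Gpha2 is spread over all blocks.

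The last comparison set Beclin1 +/- against WT Krt12-low cells. Over 4238 genes past the same minimum, 93 (2.19%) were at least 1.5-fold higher and 150 (3.54%) at least 1.5-fold lower in Beclin1 +/- (5.73% in either direction). The median log2 ratio was -0.02, the central 90% ran from -0.53 to 0.44, and the counting interval of a gene had a median width of 0.82. The range and the intervals have different coverage, so their widths cannot be compared directly. How much of the spread of the ratios was counting error was not tested. The parts of mouse, preparation and genotype cannot be told apart.

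Among the genes higher in Beclin1 +/- were 3 of the alarm list and 3 of sterol synthesis. S100a8 had 111 CPM in Beclin1 +/- and 30.7 CPM in WT Krt12-low cells, a log2 ratio of 1.85 (1.45 to 2.28), S100a9 had 286 and 122 CPM (1.23), and Lcn2 had 216 and 106 CPM (1.02). In WT, 1 cell held 61.8% of the S100a8 UMIs, and the S100a8 ratio was 0.37 with Krt12 below 1000 CPM and 0.51 with Krt12 below 7000 CPM, both under 1.5-fold. Lcn2 was 0.54 after thinning, also under it. Fdps had 82.7 and 35.2 CPM (1.23, interval 0.83 to 1.65), the demethylase gene Cyp51 had 56.1 and 22.5 CPM (1.31), and Idi1, the isopentenyl diphosphate isomerase, had 39.3 and 16.2 CPM (1.27). The others were Wfdc18 (0.86), the serpin gene Serpina3g (1.14), the mitotic kinase partner Cdca8 (1.02) and Sparc (0.90). Wfdc18 fell under 1.5-fold, at 0.28 with Krt12 below 1000 CPM, 0.50 with Gpha2 of at least 1000 CPM and 0.30 without the Fos-high cells, as did Serpina3g, at 0.30 with Krt12 below 1000 CPM and 0.31 after thinning, and Sparc, at 0.36 with Krt12 below 7000 CPM. Sparc, a matrix protein of stromal cells, had 185 CPM in Beclin1 +/- and 99.2 CPM in WT Krt12-low cells, where Dcn had 112 and 63.1 CPM, and both genes are abundant in Dcn-positive cells, which were 29.2% of the Beclin1 +/- and 24.2% of the WT library. The part of stromal RNA in this ratio was not tested. Some ratios were also high in limbal cells with Krt12 and in corneal basal cells. These were S100a9 (0.99 and 1.70), Lcn2 (0.80 and 1.84) and Wfdc18 (2.67 and 3.74), the last 2 from low corneal levels. In the same 2 populations Fdps had 0.85 and 0.15, Cyp51 0.73 and -0.08, Idi1 0.29 and -0.22, and S100a8 0.07 and 0.53. Serpina3g, Cdca8 and Sparc were smaller or negative in both.

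Of the 9 genes given at the lower end, 3 were keratins. Krt19 had 73.4 CPM in Beclin1 +/- and 259.7 CPM in WT Krt12-low cells (-1.82), Krt13, a keratin of wet stratified mucosa, had 101 and 256 CPM (-1.34), and Muc4 had 10.4 and 32.9 CPM (-1.63). Krt6b, a keratin of wounded epithelium, had 146 and 300 CPM (-1.03), Il1rn had 54.9 and 132 CPM (-1.26), and Cyp2f2 had 48.6 and 162 CPM (-1.73). The imprinted noncoding RNA H19 had 10.4 and 37.9 CPM (-1.83). Lce3c (-1.87) and Serpinb3a (-1.71) rested on 1 WT cell for 46.7% and 49.6% of their WT UMIs. Without the Krt19-high cells, an alternative chosen after seeing the data, the ratio of Krt6b was 0.38, that of Krt13 was -0.29 and that of Muc4 was -0.53. These cells were a larger share in WT, so for genes that go with Krt19 the direction of this shift was set by the choice of cells. Serpinb3a was -0.46 with each cell weighted equally.

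**Figure D5:**
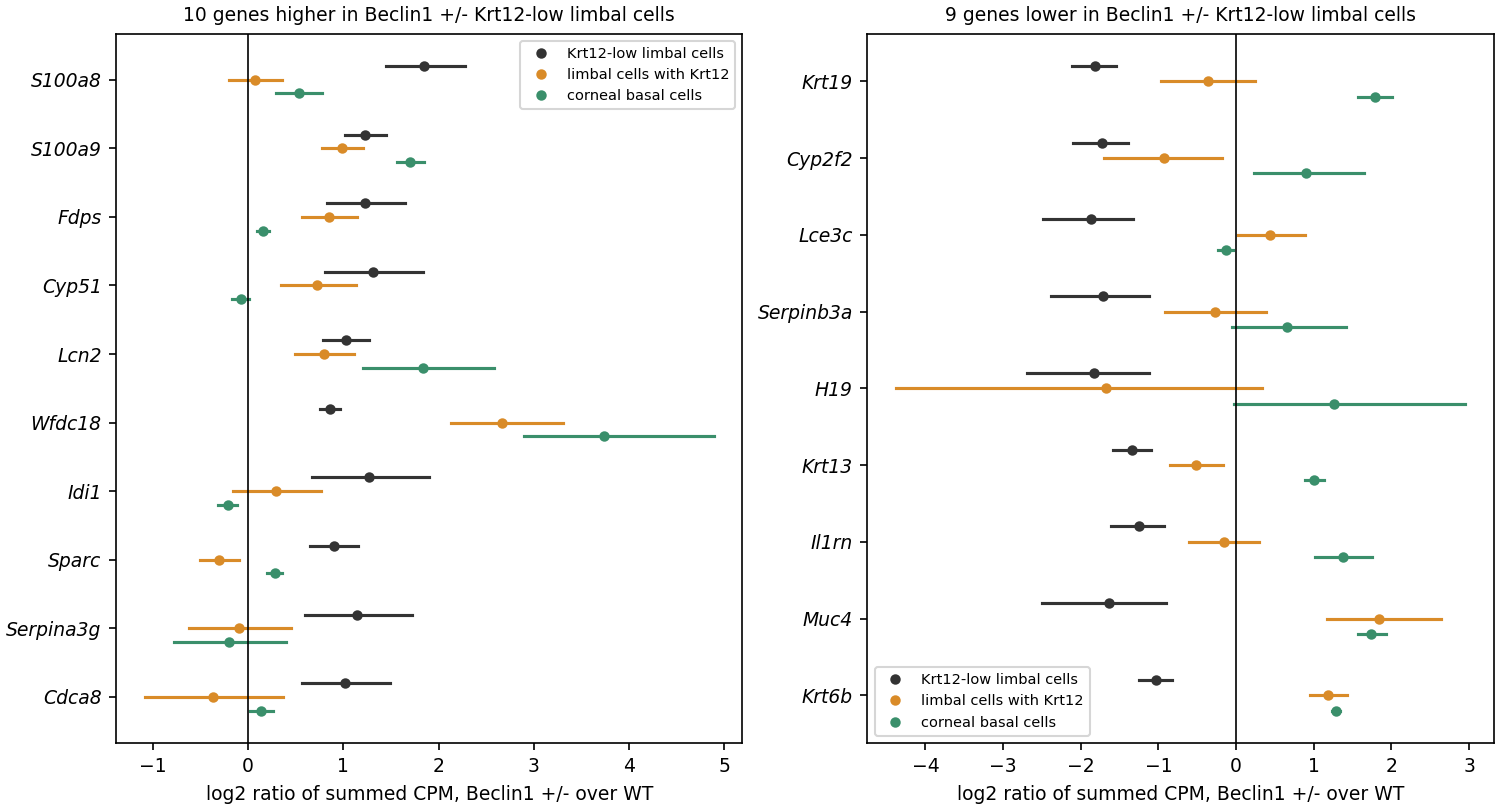
Log2 ratios of summed CPM, Beclin1 +/- over WT, of 10 genes at the higher and 9 at the lower end in Krt12-low limbal cells (black), with the ratios of the same genes in limbal cells with Krt12 (orange) and corneal basal cells (green) and lines for 95% counting intervals. S100a8 leads the higher genes at 1.85. S100a9 has 1.23 in Krt12-low limbal and 1.70 in corneal basal cells, while Krt19 has -1.82 in Krt12-low limbal but 1.79 in corneal basal cells.

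By list, 12 of 13 cholesterol synthesis genes were higher in Beclin1 +/- Krt12-low cells, 5 of them past 1.5-fold and none past it below, with a median of 0.33. Of 7 conjunctival keratins and mucins, 6 were lower, 4 past 1.5-fold, with a median of -0.76, beside the smaller share of Krt19-high cells in Beclin1 +/-. That median was -0.19 without the Krt19-high cells, -0.34 after thinning and -0.41 with each cell weighted equally. The Krt19-high cells were chosen by a keratin of this list and numbered 13 in Beclin1 +/- and 23 in WT. Leaving them out was thus bound to bring the list nearer 0, and their part in the difference was not tested. The alarm list split, with 4 of 13 called higher (S100a8, S100a9, Lcn2 and Cxcl2) and 3 lower (Il1rn, Krt6a and Krt6b). Immediate early genes were lower for 18 of 21, with 2 called and a median of -0.24, and desmosome and junction genes for 15 of 18, with 1 called and a median of -0.27. All 6 S phase genes had positive ratios, with Tyms (0.87) and Dut (0.72) past 1.5-fold. None of 16 autophagy genes passed 1.5-fold, and their median of -0.03 was near the -0.02 of all genes. The limbal markers had a median of 0.14 with none of 10 called. Over all genes 5.73% were called in either direction, so few calls would be found in lists of these sizes at that share.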

How the data were processed

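The authors deposited a matrix of UMI counts per gene and cell for each library, made with Cell Ranger 2.1.1 on mm10 per the submitters' processing notes. The cell calling step is not given in the sources used here. Both matrices together hold 27998 genes and 7668 cells, with 74363359 UMIs in Beclin1 +/- and 54913980 in WT, and the lowest cell had 5430 and 8089 UMIs. All cells were kept, and removal of Scrublet calls was an alternative.

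Counts were summed per population and scaled to CPM. Log2 ratios had 0.5 added to each count, with exact conditional 95% intervals. Levels carry exact Poisson intervals and shares exact binomial ones. UMI counting leaves other error uncovered. Shares of cells with a UMI were taken after thinning to 5000 UMIs per cell (seed 7). A gene counted as called at 2-fold against corneal basal cells and at 1.5-fold elsewhere, in both libraries where both were compared. Genes were named by rank of the smaller ratio of the libraries (12 and 8 at each end), by the interval bound nearest 0 for genotype (10 at each end), and by the 12 highest ratios of variance to mean, leaving out the 5 genes of the rule, besides list genes and genes that lead a split; some genes that the rule or the lists name are not reported here. The members and 35 gene lists were chosen with earlier results of these data known. Gene positions and promoter windows are those of GRCm38, from GENCODE and RefSeq. Alternatives changed the limits on Krt12 and Gpha2, the minimum CPM, the depth, the scaling (TMM in edgeR 4.0.16) and the cells kept. Python 3.11.15, scanpy 1.11.5 and scipy 1.17.1 were used, and the code was tested on simulated data.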

Additional observations from a re-analysis of the deposited data

Results flagged for a closer look

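Apart from Gpha2, given last, a gene was listed because its ratio had opposite signs, each past 1.5-fold, in the 2 libraries or in 2 populations. None of these differences was tested. Against corneal basal cells the ratio of Krt12-low limbal cells was -2.50 in Beclin1 +/- and 0.88 in WT for Muc4, a difference of -3.37. Against limbal cells with Krt12 the difference between the libraries was -3.48 for Muc4, -2.22 for Krt6b, -2.31 for Lce3c and -2.59 for the protease gene Prss27, all lower in Beclin1 +/- and higher in WT. In Beclin1 +/- and WT, 1 cell held 27.8% and 26.0% of the Muc4 UMIs and 28.1% and 46.7% of the Lce3c UMIs.

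The ratio of Beclin1 +/- over WT also differed in sign between populations. Krt19 had -1.82 in Krt12-low limbal and 1.79 in corneal basal cells, a difference of -3.60. Calcb had -0.86 and 1.97, a difference of -2.84. The same held for Muc4 (-3.37), Cyp2f2 (-2.63), Il1rn (-2.63), Krt13 (-2.34) and Krt6b (-2.33), while Krtdap was higher in Krt12-low limbal and lower in corneal basal cells (1.62). Against limbal cells with Krt12 the differences were -3.48 for Muc4, -2.26 for Timp1, -2.22 for Krt6b, -1.29 for Bambi, 1.56 for Col1a1 and 1.47 for Tyms.

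Gpha2 was read outside the epithelium as well. It was at 2065 CPM in 303 Beclin1 +/- and 2012 CPM in 120 WT Dcn-positive cells that reached 500 CPM of it, against 78.5 and 76.5 CPM in the other Dcn-positive cells of Beclin1 +/- and WT and 2788 and 2366 CPM in the Krt12-low limbal cells. The solute carrier gene Slc4a11 had 217 and 297 CPM in those Gpha2-positive cells of Beclin1 +/- and WT, against 21.8 and 12.4 CPM in the other Dcn-positive cells. Col4a3, Col4a4, Npnt, Atp1b1 and Car3 were also among their leading genes.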

How the results depend on the processing

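With 1 library per genotype, no sample could be left out. No paired analysis was possible because each genotype has 1 library. The number of cells followed the limits: with Krt12 below 1000 CPM the share was 1.03% in Beclin1 +/- and 2.83% in WT, with Krt12 below 7000 CPM it was 4.58% and 6.88%, and with Gpha2 of at least 1000 CPM it was 3.90% in WT. The counts of higher and lower genes between the genotypes were 320 and 265 with Krt12 below 1000 CPM, 50 and 92 with Krt12 below 7000 CPM, and 254 and 363 after thinning. At a minimum of 5 CPM these counts were 521 and 768, and at 100 CPM they were 10 and 21. Against corneal basal cells the counts were 428 and 268 at 5 CPM and 41 and 37 at 100 CPM, and against limbal cells with Krt12 they were 407 and 229, and 38 and 28. The ratios of these genes turned: Sprr2f in Beclin1 +/- against limbal cells with Krt12 was -1.21 with Krt12 below 1000 CPM, and without the Krt19-high cells, chosen after seeing the data, Krt6b was 0.38 between the genotypes. Removing Scrublet calls, weighting cells equally, TMM scaling and leaving out the Fos-high cells or the deepest cell left the counts within 1.5 times of those reported. The cause of these shifts was not tested, apart from the genes or cells each setting adds or drops. Depth limits single genes: a level of 20 CPM rests on 34.6 UMIs in Beclin1 +/- and 44.4 in WT Krt12-low cells.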
